A study of Mus musculus with 11 samples.

Results

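The genes of 10 antagonists of Wnt signalling at the cell surface were followed through RNA-seq of cultured lung mesenchymal cells that carried both, one or no copies of the transcription factor gene Sp3. They were taken by symbol from the deposited counts and are Sfrp1, Sfrp2, Sfrp4, Sfrp5, Frzb, Dkk1, Dkk2, Dkk3, Wif1 and Kremen1, all of which were found among 24062 gene rows. The cells came from mouse embryos at embryonic day 15, were isolated by their rapid adhesion to plastic and were then passaged, so that each library is a bulk sample of what grew in the dish. There were 4 Sp3+/+, 4 Sp3+/- and 3 Sp3-/- libraries from timed matings of Sp3+/- mice, in which the null allele is carried by every cell of the embryo from conception and no Cre driver or agent was used. The genotypes are those of the sample labels, which do not say whether libraries of a genotype came from separate embryos, so that p-values measure the spread between these libraries only. Library totals ran from 9849111 to 59297495 reads on genes.

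Wnt proteins signal by binding Frizzled receptors together with the co-receptors LRP5 and LRP6, which leads to stabilization of beta-catenin and transcription of its targets. Secreted frizzled-related proteins (the Sfrp genes and Frzb, which codes for the family member also called SFRP3) carry a domain like the Wnt-binding domain of Frizzled and bind Wnts outside the cell, and WIF1 binds Wnts through a domain of its own. Dickkopf proteins such as DKK1 and DKK2 bind LRP5 and LRP6 instead, with the transmembrane receptor KREMEN1 as a partner, and DKK3 is a divergent member of that family. KREMEN1 is thus the only listed protein that is not secreted. In the developing lung, Wnt ligands and their antagonists are made in the mesenchyme as well as the epithelium.

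Sp3 binds GC boxes in promoters, the sequences through which the deleted factor is known to act. For this reason the stretches of 30 bases around each GC box found in the promoter windows of these genes are shown. The search covered the 250 bases before the start site that each RefSeq promoter window of GRCm38.p6 uses, for the letters GGGCGG on both strands. Windows were given for 6 of the 10 genes. Sfrp1, Sfrp4, Dkk3 and Kremen1 had none in the table. A match was found in 4 of the 6, namely Frzb, Dkk2, Sfrp5 and Wif1, and none was found in the windows of Sfrp2 and Dkk1. The Sfrp2 window, chr3:83766071-83766320, lies inside the annotated gene, which starts at 83765750. The sequence before that annotated start was not searched. Among the windows of 16777 genes listed in the files 43.4% held a match. Capitals mark the match, read 5′ to 3′ on the strand of the gene, and in the second Wif1 stretch it lies on the opposite strand as CCGCCC.
Frzb, minus strand, chr2:80447430-80447459: caggggaccgcgGGGCGGagctcttgtcgg
Dkk2, plus strand, chr3:132085220-132085249: ctcttgaattggGGGCGGaggaaaacccac
Dkk2, plus strand, chr3:132085262-132085291: taaaaagctaagaGGGCGGgggagagcagc
Wif1, plus strand, chr10:121033795-121033824: acgtgtctcttcGGGCGGcaggaggcctga
Wif1, plus strand, chr10:121033910-121033939: ggtaccgcggccCCGCCCccgcggctccgc
Sfrp5, minus strand, chr19:42202278-42202307: gggacccgagccGGGCGGgaaagactcagg

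The Frzb match began 51 bases before the start site and the Sfrp5 match 43 bases before it. Those of Dkk2 began 60 and 17 bases before the start site of its window, and those of Wif1 197 and 82 bases before. The Dkk2 window ends at 132085291, past the annotated start of the gene at 132085266. Its second match therefore lies inside the annotated gene. The longer form GGGGCGGGG was present in the Wif1 window only, as part of its second match, and in 14.3% of all windows. The related GT box GGTGTGGGG was in none of the 6 windows and in 0.7% of all windows. The letters are a description of the windows, and no binding was measured in these libraries. Frzb lies on the same chromosome as Sp3, 7.43 Mb beyond its end, and the other 9 genes are on other chromosomes.

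The libraries were checked against their labels first. Sp3 measured 92, 60.7, 107 and 78.8 CPM (counts scaled to a common library total) in the Sp3+/+ libraries 468-4, 685-2, 697-1 and 697-3. It measured 51.8, 63.2, 71.6 and 56.2 CPM in the Sp3+/- libraries 468-3, 685-5, 685-7 and 697-4. In the Sp3-/- libraries 685-1, 697-2 and 697-5 it was 18.9, 18.3 and 14.4 CPM, below every other library. The log2 fold change of Sp3 was -2.30 (SE 0.21, adjusted p = 0.00611) in Sp3-/- against Sp3+/+. Markers of lung mesenchyme were present in every library, with a summed level of 10 genes of 13100 to 22100 CPM in Sp3+/+, 14900 to 22300 CPM in Sp3+/- and 7100 to 19100 CPM in Sp3-/-. Of these 10 genes, 4 were called lower in Sp3-/- than in Sp3+/+ (Vim, Pdgfrb, Tbx5 and Foxf1), where 9.77% of all genes tested were called lower. None was called higher, and 2 had a log2 fold change above 0 (Col3a1 at 0.41 and Tcf21 at 0.83). The labels leave unexplained a number, 2 or 3, that closes some sample titles and is here called the suffix. All 3 Sp3-/- libraries have none, and among the others only 468-4 (Sp3+/+) and 697-4 (Sp3+/-) have none, the latter with a 2 in the name of its deposited data. Genotype and suffix can therefore hardly be told apart.

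In Sp3+/+ cells 7 of the 10 antagonists were expressed above the filter of 1 CPM in at least 1 library, and the order of their levels spanned a wide range. Divided by the length of the union of their exons, Dkk2 had the highest mean, 25.5 ± 12.4 CPM per kb (SD, n = 4). Dkk3 (13.3 ± 4.45) and Sfrp1 (11.5 ± 4.22) followed, and Kremen1 was at 5.63 ± 0.62 CPM per kb. The low end of the expressed genes was Frzb at 1.90 ± 0.636, Sfrp2 at 1.71 ± 1.43 and Sfrp4 at 0.333 ± 0.0807 CPM per kb. Dkk2 was above Dkk3 in 4 of 4 libraries although their ranges overlapped. Dkk3 was above Sfrp1 in 2 of 4, and Frzb above Sfrp2 in 2 of 4, so neither pair has an order beyond its spread. Sfrp1, Kremen1 and Frzb followed each other with no overlap of their ranges. The place of Kremen1 rests on the length used, because its union of exons is far longer than its longest transcript. With the longest transcript, Kremen1 came to 14.0 CPM per kb, between Dkk3 at 15 and Sfrp1 at 11.9.

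The order was much alike in Sp3+/- cells and changed at a few places in Sp3-/- cells. In Sp3+/- cells Dkk2 led at 30.5 CPM per kb, above Dkk3 at 9.75 with no overlap, and Frzb was at 2.12. In Sp3-/- cells Dkk2 was still first at 16.8 CPM per kb. Dkk3, Kremen1 and Sfrp1 were at 5.43, 5.13 and 4.46 CPM per kb there, with overlapping ranges. With the longest transcript Kremen1, at 12.7 CPM per kb, was instead above Dkk3, at 6.14, in 3 of 3 Sp3-/- libraries with no overlap. Frzb, at 0.423 ± 0.103 CPM per kb (SD, n = 3), lay below Sfrp2 at 1.03 ± 0.256 in 3 of 3 Sp3-/- libraries with no overlap. Its range overlapped that of Sfrp4 at 0.286 ± 0.142.

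The other 3 genes, Sfrp5, Dkk1 and Wif1, were close to the limit of detection in all genotypes. Sfrp5 had 16 reads in all 11 libraries together, with at most 5 in one library, and was at 0 in 3 libraries. Dkk1, the best known LRP inhibitor of the family, had 22 reads in all, at most 5 in a library, and was at 0 in 3. Wif1 had 34 reads in all, at most 8 in a library, and was at 0 in 1. A count of 0 allows up to 3 reads, which corresponds to between 0.0506 and 0.305 CPM depending on the library, counting error only. They did not pass the filter and were left out of the main fits. In fits of every gene with a count all 10 antagonists were tested, and none of these 3 was called in any of the 3 comparisons. A difference between genotypes in them was not detectable at this depth.

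Frzb was the antagonist that differed most between Sp3-/- and Sp3+/+ cells and the only one called. It was measured at 3.51, 7.72, 8.74 and 7.38 CPM in the Sp3+/+ libraries 468-4, 685-2, 697-1 and 697-3. In the Sp3-/- libraries 685-1, 697-2 and 697-5 it was at 1.12, 1.85 and 1.60 CPM, from 16 to 82 reads per library. All Sp3-/- libraries lay below all Sp3+/+ libraries, and among the latter 468-4, the library without a suffix, was lowest. The log2 fold change was -2.17 (SE 0.38, 95% interval -3.06 to -1.28, Benjamini-Hochberg adjusted p = 0.0153 over 14025 genes, quasi-likelihood test of edgeR), a 4.49-fold lower level. Of all genes tested, 18.5% were called in this comparison, and 9.77% were called lower. When single libraries were left out the log2 fold change of Frzb stayed between -2.39 and -1.98, and its adjusted p rose to 0.0558 without Sp3-/- library 697-2. Over all alternatives the adjusted p lay between 2.38e-06 with DESeq2 and 0.50 among libraries without a suffix.

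Sfrp1, which codes for another frizzled-related protein, was also lower in every Sp3-/- library without passing the threshold. It measured 30.4, 63.2, 78.4 and 50.3 CPM in the Sp3+/+ libraries 468-4, 685-2, 697-1 and 697-3. The Sp3-/- libraries 685-1, 697-2 and 697-5 gave 26.1, 29.3 and 9.11 CPM. The groups did not overlap, but 468-4 was only just above the highest Sp3-/- library. The log2 fold change was -1.36 (SE 0.45, 95% interval -2.40 to -0.32), with an adjusted p of 0.0699 from the same edgeR test. The adjusted p was 0.00889 with DESeq2 and 0.0346 when all 11 libraries shared 1 edgeR fit, and over all alternatives it lay between 0.00889 and 0.799. Without Sp3+/+ library 468-4 the log2 fold change was -1.56 (adjusted p = 0.0284, edgeR), and without Sp3-/- library 697-5 it was -1.02 (adjusted p = 0.117, edgeR).

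Dkk3 gave a difference of similar size with overlapping groups. Its Sp3+/+ libraries measured 84.4, 52.5, 102 and 125 CPM in the order 468-4, 685-2, 697-1 and 697-3. Its Sp3-/- libraries measured 18.6 (685-1), 29.9 (697-2) and 62.9 CPM (697-5). Library 697-5 lay within the Sp3+/+ range and the other 2 below it. The log2 fold change was -1.30 (SE 0.46, 95% interval -2.38 to -0.22, adjusted p = 0.0851, edgeR). Without 697-5 it was -1.92, with an adjusted p of 0.0351, and without 685-1 it was -0.98, with an adjusted p of 0.159. With limma-voom the full set gave -1.62 and an adjusted p of 0.0376, and over all alternatives the adjusted p lay between 0.0182 and 0.621.

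The remaining 4 genes tested did not pass and had overlapping groups. Dkk2, the most abundant antagonist, measured 75.4, 67.5, 107 and 183 CPM in Sp3+/+ and 34.9, 75.3 and 103 CPM in Sp3-/- libraries. Its log2 fold change of -0.61 had an interval of -1.69 to 0.48 (adjusted p = 0.375, edgeR), which spans falls and rises as well as no change. Kremen1 was the most even of the genes, at 78.8, 63.1, 66.0 and 77.0 CPM in Sp3+/+ and 58.8, 59.5 and 76.7 CPM in Sp3-/- libraries. Its log2 fold change was -0.13 with a narrow interval of -0.46 to 0.19 (adjusted p = 0.514, edgeR).

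Sfrp2 and Sfrp4 were low and varied. Sfrp2 measured 2.39, 3.42, 8.70 and 1.24 CPM in Sp3+/+ libraries and 2.58, 2.82 and 1.70 CPM in Sp3-/- libraries, so that the Sp3-/- libraries lay inside the range of the controls. Its log2 fold change was -0.72 (interval -2.19 to 0.76, adjusted p = 0.442, edgeR), and without Sp3+/+ library 697-1 it was 0.04. Sfrp4 lay between 1.09 and 1.78 CPM in Sp3+/+ and between 0.801 and 1.88 CPM in Sp3-/- libraries. Its log2 fold change was -0.19 (interval -1.09 to 0.71, adjusted p = 0.752, edgeR).

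**Figure D1:**
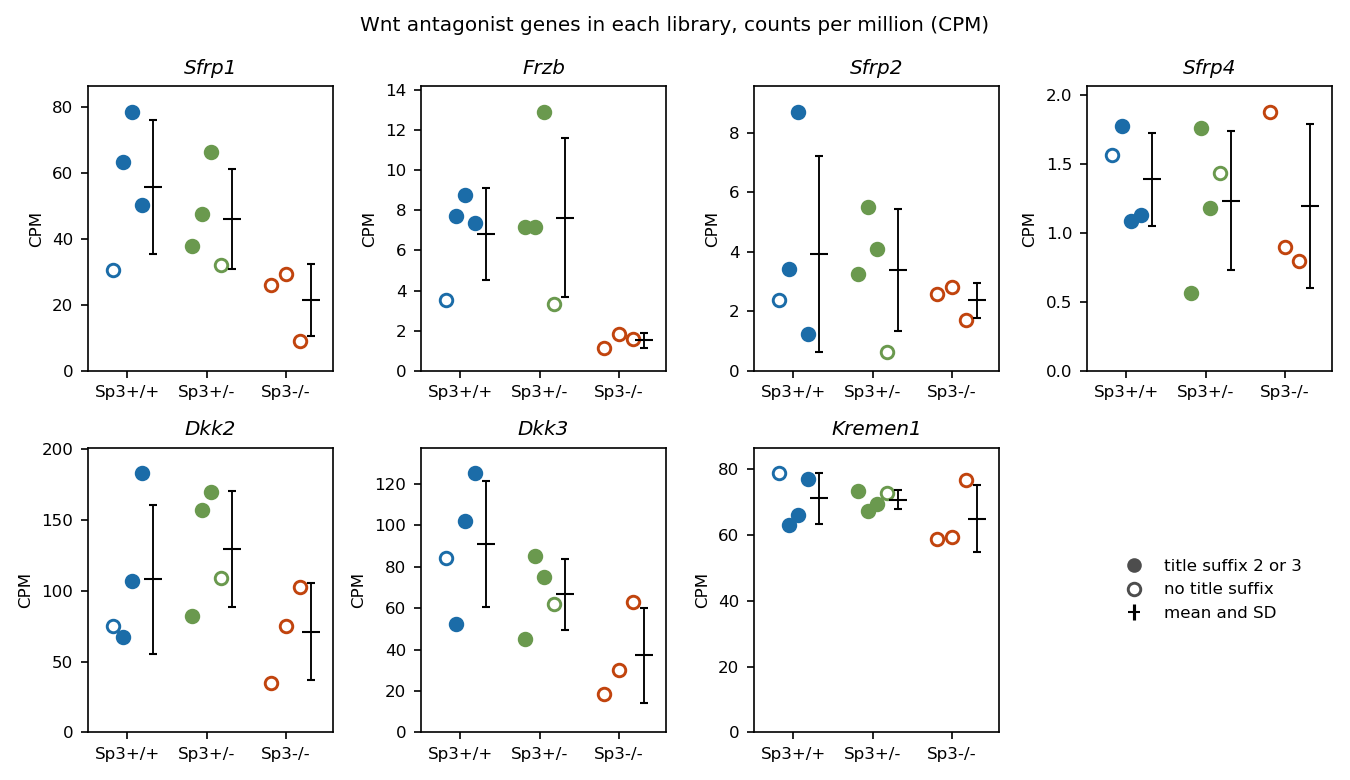
Level of the 7 antagonists tested in each library (vertical axes, CPM, from 0), by genotype, with open points for libraries without a title suffix and a black bar for the mean and SD of each genotype. The Sp3-/- libraries of Frzb sit between 1.12 and 1.85 CPM, below every other library, while those of Kremen1 sit between 58.8 and 76.7 CPM, overlapping both other genotypes.

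Over the group, 1 of the 7 genes tested was called, lower, and 6 were not. Their fitted log2 fold changes all lay below 0, from -2.17 to -0.13, with a median of -0.72 beside a median of 0 and a share below 0 of 50.3% over all genes. The genotypes did not overlap for 2 of the 7 (Frzb and Sfrp1), both lower, where 31.3% of all genes tested did not overlap in either direction and 16.2% were lower without overlap. Shares of 1 and 2 in 7 are thus near those of genes at large.

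Against Sp3+/- cells, the Sp3-/- libraries gave the same single call. Both comparisons use the same 3 Sp3-/- libraries and are not independent. Frzb was at 7.15, 7.17, 12.9 and 3.32 CPM in the Sp3+/- libraries 468-3, 685-5, 685-7 and 697-4, with the library without a title suffix lowest. None of them overlapped the Sp3-/- range, and the log2 fold change was -2.34 (SE 0.47, interval -3.38 to -1.30, adjusted p = 0.00843, edgeR over 14130 genes, of which 25.5% were called and 12.5% were called lower). Sfrp1 measured 37.7, 47.6, 66.4 and 32.1 CPM in the same Sp3+/- libraries, again without overlap and again with 697-4 lowest. Its log2 fold change was -1.08 (SE 0.41, adjusted p = 0.0767, edgeR). Here 34% of all genes had groups that did not overlap, and 17.7% were lower without overlap.

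Dkk2 and Dkk3 overlapped between Sp3+/- and Sp3-/- libraries. Dkk2 was at 82.3, 157, 170 and 109 CPM in Sp3+/- cells, with a log2 fold change of -0.86 (interval -1.82 to 0.09, adjusted p = 0.164, edgeR). Dkk3 was at 45.2, 84.9, 74.8 and 61.8 CPM, with a log2 fold change of -0.85 (interval -1.76 to 0.06, adjusted p = 0.149, edgeR). Without Sp3-/- library 697-5, the log2 fold change of Dkk3 was -1.48 with an adjusted p of 0.0258, and without 685-1 it was -0.52 with an adjusted p of 0.358, in a range over its alternatives of 0.0258 to 0.778. Kremen1, at 67.5 to 73.4 CPM in Sp3+/- cells, gave -0.13 (interval -0.39 to 0.14). The median over the 7 genes was -0.85 beside 0 over all genes tested.

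Between Sp3+/- and Sp3+/+ cells no antagonist was called, in a comparison in which 0% of 14130 genes were called. By edgeR 246 of all genes and none of the antagonists had an unadjusted p below 0.05, and DESeq2 and limma-voom also called 0 genes. The 7 fitted log2 fold changes ran from -0.46 for Dkk3 (interval -1.27 to 0.36) to 0.25 for Dkk2 (interval -0.62 to 1.11). Frzb was at 0.16 with an interval of -0.70 to 1.02 and Sfrp1 at -0.28 with an interval of -1.10 to 0.54. The narrowest interval was that of Kremen1, from -0.26 to 0.23 around -0.02. The loss of 1 copy left Sp3 itself at a log2 fold change of -0.49 (SE 0.16, unadjusted p = 0.0131, adjusted p = 1, edgeR).

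**Figure D2:**
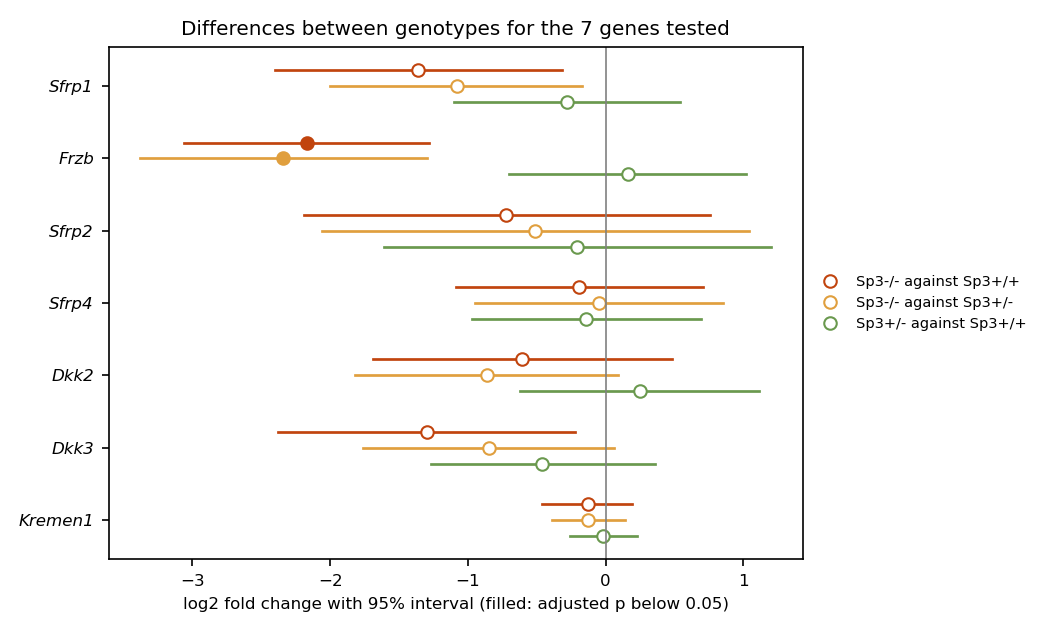
Log2 fold change with its 95% interval (horizontal axis) for the 7 antagonists tested (rows) in the 3 comparisons of genotypes, with filled points where the adjusted p was below 0.05. Frzb is filled at -2.17 and -2.34 in the comparisons with Sp3-/-, and every interval of Sp3+/- against Sp3+/+ crosses 0.

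The title suffix moved with the 2 genes that separated the genotypes best. Among the 8 libraries that carry Sp3, the 2 without a suffix had Frzb at 3.51 and 3.32 CPM, below the other 6 at 7.15 to 12.9 CPM and above the Sp3-/- libraries at 1.12 to 1.85 CPM. Sfrp1 was at 30.4 and 32.1 CPM in these 2, below the other 6 at 37.7 to 78.4 CPM. Dkk2, Dkk3, Kremen1, Sfrp2 and Sfrp4 did not set the 2 apart in this way. With the suffix as a covariate in a fit of all 11 libraries, the log2 fold change of Frzb was -1.09 in Sp3-/- against Sp3+/+ (SE 0.33, adjusted p = 0.0689) and -1.29 against Sp3+/- (SE 0.34, adjusted p = 0.0594). Sfrp1 was at -0.58 (adjusted p = 0.396) and Dkk3 at -1.14 (adjusted p = 0.184) against Sp3+/+ in that edgeR fit. No antagonist was called there, beside 9.41% of all genes against Sp3+/+ and 5.4% against Sp3+/-. Among libraries without a suffix alone, Frzb was still lowest in the 3 Sp3-/- libraries, with a log2 fold change of -1.22 against 468-4 (SE 0.44, adjusted p = 0.50, edgeR), in a fit that called 0% of all genes. The spread of that fit comes from the Sp3-/- libraries only, and the lone Sp3+/+ library is assumed to vary like them.

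Markers of other cells moved with genotype and with the suffix as well. The summed level of 12 macrophage genes was 640 to 3420 CPM in Sp3+/+, 385 to 3170 CPM in Sp3+/- and 3280 to 12100 CPM in Sp3-/- libraries. The lysozyme gene Lyz2 was the largest part of the sum, at 397 to 2160 CPM in Sp3+/+ and 2080 to 8220 CPM in Sp3-/- libraries, which overlap. All 12 had a log2 fold change above 0 in Sp3-/- against Sp3+/+. Of them 6 were called higher, among them the complement gene C1qa and Lyz2, where 8.76% of all genes were called higher. The 2 libraries with Sp3 but without a suffix, 468-4 and 697-4, had sums of 3420 and 3170 CPM, and the other 6 had at most 924 CPM. The part of these cells in the lower Frzb and Sfrp1 was not tested. In a bulk library fewer cells of a type and less RNA per cell cannot be told apart.

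Among the libraries, 3 had macrophage sums close to each other, 468-4 at 3420, 697-4 at 3170 and the Sp3-/- library 685-1 at 3280 CPM. Frzb was at 3.51, 3.32 and 1.12 CPM in them, Dkk3 at 84.4, 61.8 and 18.6 CPM, and Sfrp1 at 30.4, 32.1 and 26.1 CPM. The same libraries differed in other markers, with mesothelial sums of 1660, 1700 and 5660 CPM, epithelial sums of 27.5, 22.8 and 151 CPM and lung mesenchyme sums of 13100, 14900 and 19100 CPM. Their smooth muscle and myofibroblast sums were 13100, 21000 and 5010 CPM, lowest in the Sp3-/- library. These are single libraries, with no test.

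Other marker lists moved too. The summed level of 6 mesothelial genes was 697 to 1660 CPM in Sp3+/+ and 2030 to 5660 CPM in Sp3-/- libraries, and 3 of the 6 were called higher. Epithelial genes were low, at 14.5 to 33.7 CPM in Sp3+/+ and 46.7 to 151 CPM in Sp3-/- libraries for 8 genes, with Epcam, Cdh1 and Krt18 called higher, while the lung epithelial genes Nkx2-1 and Sftpc reached at most 0.14 and 0.10 CPM in Sp3-/- libraries and up to 1.16 and 4.51 CPM in Sp3+/+ libraries. The 6 smooth muscle and myofibroblast genes summed to 11600 to 25400 CPM in Sp3+/+ and 4010 to 5010 CPM in Sp3-/- libraries, and 5 were called lower. Of all genes tested, 8.76% were called higher and 9.77% lower in Sp3-/- against Sp3+/+. Endothelial sums overlapped (29.7 to 72.9 and 42.5 to 48.9 CPM), and the erythroid sum was 1.99 to 6.60 CPM against 9.11 to 13.1 CPM. The part of these cells in the results was not tested.

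**Figure D3:**
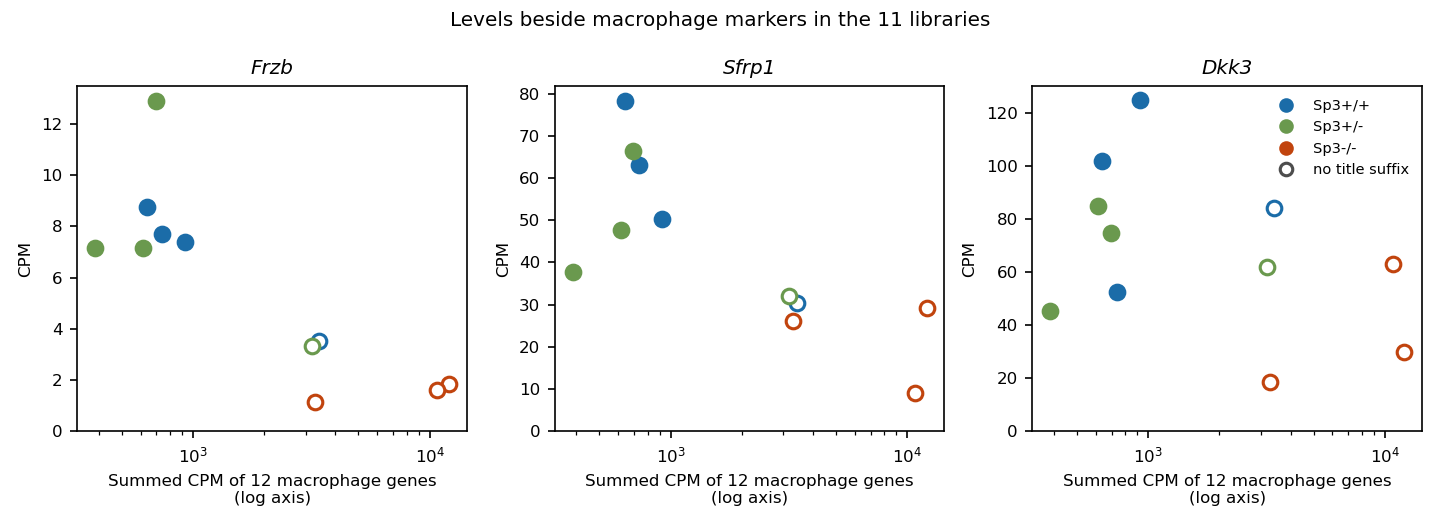
Level of Frzb, Sfrp1 and Dkk3 (vertical axes, CPM, from 0) against the summed CPM of 12 macrophage genes (horizontal log axis) in the 11 libraries, colored by genotype, open where the title has no suffix. For Frzb the 3 libraries between 3170 and 3420 CPM of macrophage genes hold 3.51, 3.32 and 1.12 CPM, the last of them Sp3-/-.

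The antagonists were related to each other to differing degrees across the 11 libraries. On the log2 CPM scale Sfrp1 and Frzb went together (Pearson r = 0.82), as did Dkk2 and Dkk3 (0.83), whereas Sfrp1 was little related to Dkk2 (0.31) or Dkk3 (0.36). Frzb stood between, at 0.65 with Dkk2 and 0.67 with Dkk3. Kremen1 followed Dkk3 (0.68) and not Sfrp1 (-0.23). Each of these is a description over 11 libraries that share genotypes and suffixes. Among 11203 other genes above a mean of 2 log2 CPM, the patterns most like that of Frzb were those of Mira (0.98), of the forkhead factor gene Foxp2 (0.98) and of the calcium channel gene Cacna1h (0.97). For Sfrp1 they were Eri2, Ankrd10 and Zfp518b (each 0.97). For Dkk2 they were the receptor gene P2ry14 (0.95) and the homeobox genes Hoxb6 (0.94) and Hoxb8 (0.93). For Dkk3 they were the thrombin receptor gene F2r (0.94), Mdga1 (0.93) and Cib2 (0.93), and for Kremen1 Pycrl (0.98), the peroxiredoxin gene Prdx6 (0.94) and Ndrg4 (0.93).

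The rest of the Wnt pathway was counted from 6 lists by role, 62 genes of which were tested, and 15 of these were called in Sp3-/- against Sp3+/+ cells, 6 higher and 9 lower, where 8.76% of all genes were called higher and 9.77% lower. Of 9 Wnt ligand genes, 3 were called higher and 2 lower. The lung mesenchymal ligand gene Wnt2 rose by a log2 fold change of 2.12 (adjusted p = 0.0355, edgeR) and Wnt4 by 1.86 (adjusted p = 0.0153, edgeR), while Wnt16 changed by -2.82 (adjusted p = 0.00764, edgeR). Among 14 receptors and co-receptors 3 were called, each lower, namely the Wnt5a receptor genes Ror2 (-2.95) and Ror1 (-1.73) and the Frizzled gene Fzd7 (-0.48). Lrp5 and Lrp6 code for the co-receptors that DKK1 and DKK2 bind. Lrp5 was at 0.07 (adjusted p = 0.666) and Lrp6 at 0.26 (adjusted p = 0.224) in the same edgeR fit.

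Of 8 genes for R-spondins, their receptors and the ligases they act on, the agonist gene Rspo2 alone was called, at -4.22 (SE 0.55, adjusted p = 0.00887, edgeR). Of 7 other extracellular or membrane inhibitors, Tpbg alone was called, at -1.79 (adjusted p = 0.0413, edgeR), and their median was -0.88. Of these 7, 5 were below 0 and 2 above. The latter were Notum at 2.16 (adjusted p = 0.0877, edgeR) and Igfbp4 at 1.91 (adjusted p = 0.0902, edgeR). Of 8 feedback targets of beta-catenin, Axin2, a scaffold of the destruction complex, rose by 3.30 (SE 0.32, adjusted p = 0.00611, edgeR) and the receptor gene Tnfrsf19 by 0.91, Myc changed by -0.64, and the median was 0.49. Of 16 intracellular genes the beta-catenin gene Ctnnb1 (0.46) was called higher and Tcf7l1 (-0.93) lower. With the title suffix as a covariate 9 of the pathway genes were called, in a fit that called 9.41% of all genes, and without Sp3-/- library 697-2 there were 3, in a fit that called 2.01%.

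**Figure D4:**
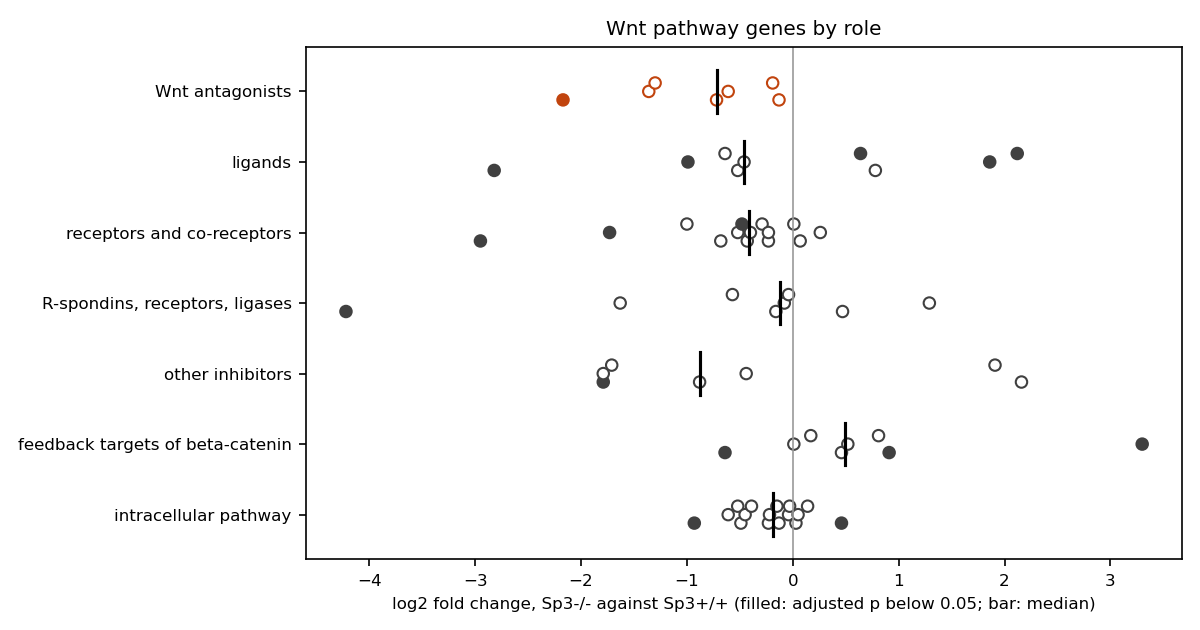
Log2 fold change in Sp3-/- against Sp3+/+ cells (horizontal axis) of each gene tested, in rows by role, filled where the adjusted p was below 0.05, with a bar at the median of the row. The antagonists all lie left of 0 with only Frzb, at -2.17, filled, and Rspo2 at -4.22 and Axin2 at 3.30 are the outermost points of the pathway.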

How the data were processed

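RNA-seq of 11 libraries of E15 mouse lung mesenchymal cells was used. TruSeq libraries were read as 50 bp single ends by the authors, who ran FastQC 0.10.1, aligned with STAR 2.4.5a to mm10 and deposited whole-number counts per gene symbol from htseq-count, with no normalization. The strand setting and annotation version are not given in the sources used here, so overlapping genes may share reads. Between 38.4% and 40.9% of each library's total, tallied outside genes, was left out.

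Genes above 1 CPM in 1 or more libraries of a fit entered the test of edgeR 4.0.16 (TMM, robust quasi-likelihood, R 4.3.3) and called at a Benjamini-Hochberg adjusted p below 0.05 over all genes. The comparison of Sp3-/- with Sp3+/+ used 7 libraries, and those with Sp3+/- used all 11. Each SE is the fold change divided by the root of the F statistic. Levels are CPM with TMM factors of 11 libraries, log2 values have a prior count of 2, and lengths are from GENCODE vM39 on GRCm39. The pipeline was tested on simulated data. No pair of libraries of a genotype agreed within counting noise (lowest chi-square per degree of freedom 16.6).

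The antagonists, pathway and marker lists were chosen with earlier results of these data known. Named genes are the antagonists, at most 3 called genes of largest change per pathway list with Axin2, at most 3 genes of most similar pattern for antagonists above 2 log2 CPM in a genotype, and Sp3. Lrp5, Lrp6, Notum, Igfbp4 and the marker genes named were added after their values were seen. Promoter windows are RefSeq's on GRCm38.p6. Alternatives were DESeq2 1.42.0, limma-voom (limma 3.58.1) without and with a consensus correlation, other normalizations and filters, a block for the first label number, a covariate for the title suffix, other sets of libraries, and each library left out.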

Additional observations from a re-analysis of the deposited data

How the results depend on the processing

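The share of all genes called is given in parentheses beside each count. In Sp3-/- against Sp3+/+ the count of antagonists called, 1 in the main analysis (18.5%), was 3 with DESeq2 (30.6%), 2 with limma-voom (17.8%), 2 with its consensus correlation (21.6%), 3 with all 11 libraries in the fit (28.1%), 0 with the suffix covariate (9.41%), 0 among libraries without a suffix (0%, which says nothing of these genes), and 0 to 2 with single libraries left out (2.01% to 29.9%). The other 2 alternatives were chosen after seeing the data, and both called 0: libraries 468-4 and 697-4 together against Sp3-/- (0.347%), and the suffix covariate with 697-4 at suffix 2 (1.15%). Against Sp3+/- the count of 1 (25.5%) became 2 with DESeq2 (32.8%), 2 with limma-voom (26.2%), 2 with its consensus correlation (26.1%), 0 with either suffix covariate (5.4%, and 0% with 697-4 at suffix 2), and 1 to 2 with single libraries left out (10.6% to 26.3%). Pathway genes called, 15, were 9 with the suffix covariate (9.41%), 2 with 697-4 at suffix 2 (1.15%), and 3 to 26 with single libraries left out: 26 without 468-4 (29.9%), 3 without 697-2 (2.01%), 6 without 697-1 (5.48%), 7 without 685-2 (6.39%), 7 without 697-3 (5.74%) and 8 without 697-5 (10.1%). Other scalings and filters changed no call of an antagonist. The first label number as a replicate block called 3 antagonists against Sp3+/+, namely Frzb, Sfrp1 and Dkk3 (28.7%), and 1 against Sp3+/- (20.9%). The labels do not say that this number pairs libraries, and deviations of libraries sharing it correlated at a median of 0.11, from -0.70 to 0.41, over 14 pairs.

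Signs turned only for changes that the alternatives run did not call. In Sp3-/- against Sp3+/+, Sfrp2 was 0.52 with the suffix covariate, 0.01 with 697-4 at suffix 2 and 0.61 with 468-4 and 697-4 together, with single libraries left out it ran from -1.02 to 0.04, and Sfrp4 from -0.69 to 0.01. In Sp3+/- against Sp3+/+, Sfrp2 was 0.16 with limma-voom, 0.18 with its consensus correlation and 0.09 with 697-4 at suffix 2, Kremen1 was 0.03 with the block, and Sfrp4 was 0.07 and 0.15 with the 2 suffix covariates. Leaving out libraries there gave -0.55 to 0.55 for Sfrp2, -0.36 to 0.07 for Sfrp4, -0.22 to 0.41 for Frzb and -0.07 to 0.05 for Kremen1. In Sp3-/- against Sp3+/-, Sfrp2 was 0.87 with the suffix covariate, Sfrp4 was 0.01 with the block and ran from -0.55 to 0.17 with libraries left out. The cause was not tested. Depth limits Sfrp5, Dkk1 and Wif1, with at most 5, 5 and 8 reads in a library, and among the genes tested the lowest library held 8 reads of Sfrp4, 13 of Sfrp2 and 16 of Frzb.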
